A study of Homo sapiens with 11 samples.

Results

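The mitochondrial chromosome carries 37 genes in the count table of 60676 genes, and all 37 were taken as members by their position and their MT- symbols. They comprise 13 genes for proteins of the respiratory chain and ATP synthase, 2 ribosomal RNA (rRNA) genes and 22 transfer RNA (tRNA) genes. In human cells this chromosome is transcribed from both strands as long precursors by a polymerase of its own, POLRMT, and the tRNAs that lie between most of the other genes are cut out to release the rRNAs and mRNAs. Transcripts made from the heavy-strand promoter hold 12 of the coding genes, both rRNAs and 14 tRNAs. The light-strand promoter gives MT-ND6 and 8 tRNAs. The respiratory chain is the main consumer of oxygen in a cell, and its complexes I, III, IV and V are built from proteins of both genomes.

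The libraries came from RWPE1, a prostate epithelial cell line that was immortalized and does not form tumours. Cells were grown in normoxia (3 libraries) or were moved to 1% oxygen for 6 h (3 libraries), 12 h (3 libraries) or 24 h (2 libraries). Another library of the planned triplicate at 24 h is not analysed here. Hypoxic cultures also received 10 mM HEPES, a pH buffer, so low oxygen and buffer cannot be told apart in any comparison with normoxia. All groups are 1 cell line, and the labels do not say whether replicates were separate cultures, so the p-values measure the spread between these libraries. For single genes that spread was estimated over all groups together. The 24 h libraries therefore also enter the 6 h and 12 h tests, and the other groups enter those at 24 h.

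Libraries held 27496009 to 49488345 counted reads of up to 75 bases, from RNA longer than 200 nucleotides. All 9 prostate epithelial markers were above 1 CPM (counts per 1000000 counted reads, with TMM scaling) in every library, with a summed level of 8590 to 11500 CPM in normoxia and 12000 to 23300 CPM in hypoxia, whereas 0 of 3 leukocyte and 0 of 2 endothelial markers were. The 5 fibroblast markers summed to 28 to 60.5 CPM, with 1 of 5 above 1 CPM in every library, and their part in the results was not tested. Replicate 2 at 24 h stood apart: its TMM factor, which scales a library by its composition, was 0.539 against 0.8506 to 1.324 in the others, and its 10 largest genes took 14.94% of its counts against 8.883 to 13%. For the mitochondrial coding and rRNA genes and the counts over nuclear lists, 24 h results are therefore also given without 1 library of that group, while 24 h values of single nuclear genes rest on both libraries. In bulk RNA, fewer mitochondrial genomes, fewer cells of a kind and less RNA per cell cannot be told apart, and all values are relative to the other RNA of the same library.

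How the reads were counted bears on 3 kinds of members. Of 537 genes that lie wholly inside exons of the other strand, 508 (94.6%) had 0 counts in every library, close to the 90.5% of 503 genes inside exons of their own strand and against 43.4% of 10463 long noncoding genes without overlap. The counts are therefore read here as not separated by strand. MT-ND6 and the light-strand tRNA genes can therefore hold RNA of either strand. Adjacent members can share bases, and a read over 2 genes has no single owner. MT-ATP8 and MT-ATP6, subunits of ATP synthase read in different frames, share 46 bases, and MT-ND4L and MT-ND4 of complex I share 7. These stretches are printed from GRCh38 with the shared bases in capitals, at chrM:8515-8584 and chrM:10740-10786, plus strand.
MT-ATP8/MT-ATP6: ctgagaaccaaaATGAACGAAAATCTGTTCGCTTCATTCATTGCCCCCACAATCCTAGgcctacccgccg
MT-ND4L/MT-ND4: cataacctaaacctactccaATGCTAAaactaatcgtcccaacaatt

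Nuclear pseudogene copies of the mitochondrial genome can claim the same reads. MTCO1P12, a copy of the complex IV gene MT-CO1 on chromosome 1, was 98.64% identical to it over the gene, with 21 edits. Both are shown over 60 bases (chrM:7214-7273 and chr1:632385-632444, plus strand, GRCh38), with the bases that differ in capitals.
MT-CO1: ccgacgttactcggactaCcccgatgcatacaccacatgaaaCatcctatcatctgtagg
MTCO1P12: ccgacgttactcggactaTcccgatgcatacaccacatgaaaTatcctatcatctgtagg

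The tRNA genes with the largest differences are those of a light-strand cluster between MT-ND2 and MT-CO1. They are MT-TA for alanine (chrM:5587-5655), MT-TN for asparagine (chrM:5657-5729), MT-TC for cysteine (chrM:5761-5826) and MT-TY for tyrosine (chrM:5826-5891), all on the minus strand of GRCh38. MT-TP for proline (chrM:15956-16023, minus strand), which lies next to the noncoding control region, is shown because it had a normoxic count like that of MT-TN and smaller differences. Capitals mark the anticodon, and sequences run 5′ to 3′ along the tRNA.
MT-TA: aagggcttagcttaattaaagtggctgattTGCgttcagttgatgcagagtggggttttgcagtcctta
MT-TN: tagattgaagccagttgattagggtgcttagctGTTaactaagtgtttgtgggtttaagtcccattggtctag
MT-TC: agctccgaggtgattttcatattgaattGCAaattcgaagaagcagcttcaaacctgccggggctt
MT-TY: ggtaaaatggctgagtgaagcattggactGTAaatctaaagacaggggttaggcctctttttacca
MT-TP: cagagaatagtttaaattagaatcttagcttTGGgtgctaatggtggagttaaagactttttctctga

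The 37 genes together took a smaller part of the RNA in hypoxia. Their share of all counts was 10.3%, 10.3% and 10.2% in the normoxic libraries. It was 5.10%, 5.27% and 4.30% after 6 h, and 5.36%, 4.78% and 6.78% after 12 h. After 24 h it was 1.74% in replicate 1 and 0.369% in replicate 2. Every hypoxic library lay below every normoxic one, while the 6 h and 12 h groups overlapped. Depth was no limit here, since the 95% Wilson interval of the lowest share ran from 0.367 to 0.371% (counting error only). The mean was 10.3% ± 0.0793 (SD, n = 3) in normoxia and 4.21% ± 2.10 (SD, n = 8) over the hypoxic libraries (exact two-sided permutation test, p = 0.0121, the smallest that these group sizes allow; 0.0162 after Benjamini-Hochberg adjustment over the 4 shares tested). With the 115 nuclear copies added to the sum, hypoxia minus normoxia went from -6.08 to -7.32 percentage points.

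The classes did not fall alike. For every 100 counts of coding genes, the rRNA genes had 16.7, 18.1 and 16.4 counts in normoxia. They had 30.5, 29.9 and 38.5 after 6 h, 21.97, 24.6 and 23.6 after 12 h, and 62.8 and 39.8 after 24 h, so that all 8 hypoxic libraries lay above the normoxic ones. On the log2 scale the ratio of rRNA to coding counts was 0.91 higher in hypoxia (exact two-sided permutation test, p = 0.0121, adjusted p = 0.0162, n = 8 and 3). The tRNA genes went the other way: their share of mitochondrial counts was 0.0752% ± 0.00556 (SD, n = 3) in normoxia and 0.0267% ± 0.00982 (SD, n = 8) in hypoxia, lower in 8 of 8 libraries (exact two-sided permutation test, p = 0.0121, adjusted p = 0.0162). This share mainly reflects few genes. MT-TC, MT-TP, MT-TN and MT-TA held most of the normoxic tRNA counts, with 2687, 1660, 1400 and 547 over the 3 libraries.

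**Figure D1:**
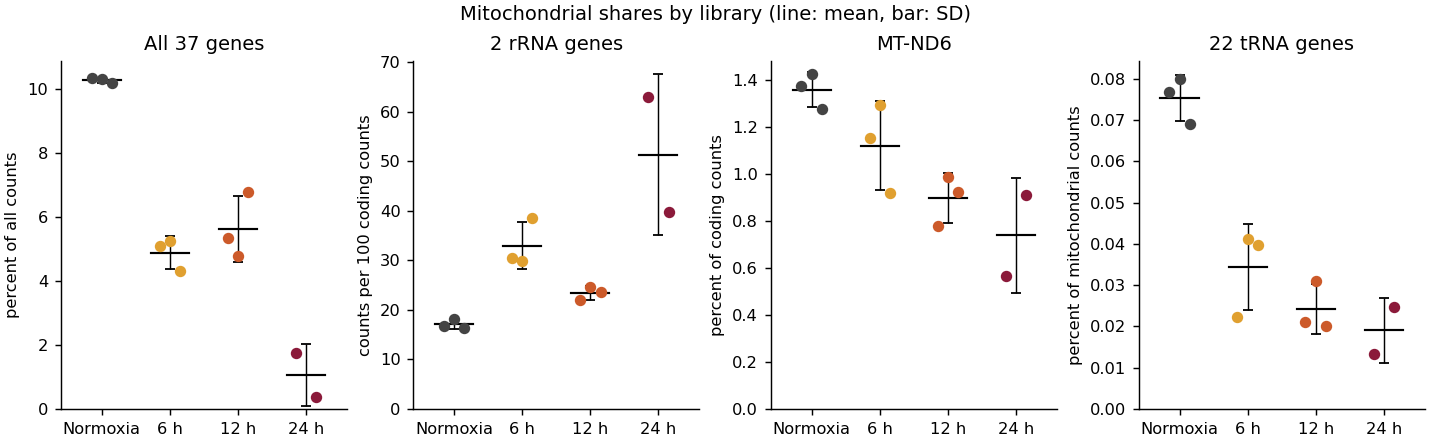
Each panel plots 1 share on the y axis for the libraries of normoxia, 6 h, 12 h and 24 h on the x axis. Points are libraries, the line is the group mean and the bar its SD. Hypoxic libraries lie between 0.369 and 6.78% of all counts against 10.2 to 10.3% in normoxia, and their rRNA counts per 100 coding counts lie above all normoxic values.

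Light-strand coding RNA, counted as MT-ND6, formed 1.38%, 1.43% and 1.28% of the coding counts in normoxia. It formed 0.918 to 1.29% after 6 h, 0.779 to 0.987% after 12 h, and 0.564% and 0.913% after 24 h. In 7 of 8 hypoxic libraries it was below all normoxic values, with means of 0.942% ± 0.221 (SD, n = 8) and 1.36% ± 0.0748 (SD, n = 3) (exact two-sided permutation test, p = 0.0242, adjusted p = 0.0242). Without normoxic replicate 1 or replicate 2 the raw p was 0.0889. MT-ND6 lies beside MT-ND5 on the chromosome, and because strands were not separated its counts cannot be assigned to 1 transcript.

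Levels between genes were compared as CPM per 1000 placements, where a placement is a start position at which a 75-base read touches that gene and no other. In normoxia MT-CO2, a copper-binding subunit of complex IV, was highest at 15550 ± 643 (SD, n = 3). It was followed by MT-CO1 at 11030 ± 239, MT-ATP6 at 10130 ± 330, MT-CO3 at 8948 ± 104 and MT-ND4 at 8589 ± 81.2. MT-ATP8 (8024 ± 680) and MT-RNR2 (7365 ± 275) came next, then MT-ND4L at 5603 ± 243, MT-ND2 at 5006 ± 291 and MT-ND1 at 3102 ± 32.7. The lowest coding genes were MT-CYB (2957 ± 90.1), MT-ND3 (2920 ± 48.8), MT-ND6 (2024 ± 82.8) and MT-ND5 (1976 ± 6.64), and MT-RNR1 was last at 584 ± 29.5. The ranges of the normoxic libraries overlapped in 4 of the 14 neighbouring pairs of this order, namely MT-ND4 with MT-ATP8, MT-ATP8 with MT-RNR2, MT-CYB with MT-ND3, and MT-ND6 with MT-ND5. Reads that match a nuclear copy can shift these levels between genes, since 0% of placements of MT-ND3, MT-ND4L, MT-ND4, MT-CYB and MT-ATP8 but 37.2% of those of MT-CO1, 34.4% of MT-ND2, 28.4% of MT-RNR1 and 25.5% of MT-ATP6 have an exact nuclear copy. How RNA was selected when the libraries were made is not described here. Levels of rRNA genes beside coding genes, and the ratio of rRNA to coding counts above, therefore need not reflect the amounts in the cells.

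**Figure D2:**
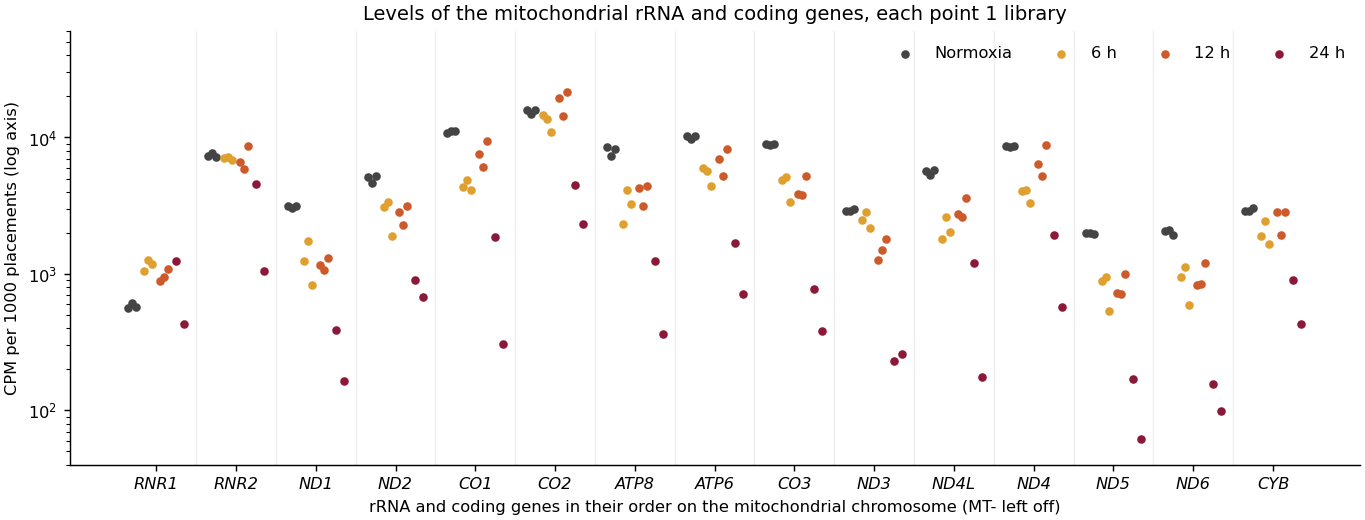
The y axis is the level in CPM per 1000 placements on a log scale, and the x axis gives the 2 rRNA and 13 coding genes in chromosome order. Each point is 1 library, coloured by time. At 24 h the points of all 13 coding genes lie below the other groups, while those of RNR1 lie on both sides of its normoxic level of 584.

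Differences of single genes were tested with edgeR's quasi-likelihood test over all 19981 genes that passed the filter on low counts, with Benjamini-Hochberg adjustment; a gene was called at an adjusted p below 0.05. Of the 37 members 25 were tested: the 13 coding genes, both rRNAs and 10 tRNAs. Against normoxia, 16 members were lower and 1 higher at 6 h, where 27.7% of all tested genes were called lower and 25.1% higher. At 12 h 16 were lower and 1 higher (27.1% and 24.2% of all genes), and at 24 h 23 were lower and 0 higher (31.3% and 29.9%). The count of 0 higher was 0 by DESeq2 and limma-voom as well, and 0 of the tested members had a positive change at an unadjusted p below 0.05. The median log2 fold change of the coding genes was -1.16, -0.92 and -3.31 at 6, 12 and 24 h, beside -0.002, -0.033 and -0.065 over all tested genes. At 24 h it was -4.29 without replicate 1 and -2.62 without replicate 2.

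MT-ND1, MT-ND2, MT-ND3, MT-ND4, MT-ND4L, MT-ND5 and MT-ND6 encode the membrane arm of complex I, the NADH dehydrogenase that pumps protons. Of these 7 genes, 6 were called lower at 6 h, 5 at 12 h and 7 at 24 h, beside 27.7%, 27.1% and 31.3% of all tested genes. MT-ND5 had 3438, 3443 and 3421 CPM in normoxia, 1538, 1663 and 934.7 after 6 h, 1251, 1242 and 1749 after 12 h, and 292.8 and 107.5 after 24 h. Each hypoxic group was thus clear of normoxia, and the 24 h libraries were clear of all others. The log2 fold changes of MT-ND5 were -1.32 ± 0.33 (SE), -1.28 ± 0.33 and -4.10 ± 0.43 (edgeR's quasi-likelihood test, adjusted p = 0.00471, 0.00602 and 8.88e-06). The 24 h value was -5.05 without replicate 1 and -3.57 without replicate 2. MT-ND6, its neighbour, had 870.4 to 941.4 CPM in normoxia, 267.2 to 508.5 at 6 h, 376.1 to 542.9 at 12 h, and 70.89 and 44.71 at 24 h, where it was 15.8-fold lower (log2 fold change -4.41 without replicate 1 and -3.71 without replicate 2).

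MT-ND1, the first coding gene after the rRNAs, had 2709 to 2760 CPM in normoxia and 1099, 1536 and 737.2 CPM at 6 h. It had 944 to 1158 CPM at 12 h, and 343.3 and 146.1 CPM at 24 h, with log2 fold changes of -1.29 ± 0.31, -1.39 ± 0.31 and -3.49 ± 0.39 (edgeR, adjusted p = 0.00364, 0.00252 and 1.37e-05). Its 24 h value was -4.29 without replicate 1 and -3.02 without replicate 2. MT-ND2 showed smaller differences of -0.84 ± 0.24, -0.86 ± 0.24 and -2.67 ± 0.30, each called, with -2.94 and -2.49 at 24 h without replicates 1 and 2. Among the coding genes only MT-ND3 was called at 12 h but not at 6 h. The tRNA genes MT-TE, MT-TL1 and MT-TK had the same pattern of calls. MT-ND3 had 783.8 to 809.2 CPM in normoxia, 593 to 777.3 at 6 h, 343.5, 410.2 and 494.3 at 12 h, and 62.81 and 69.98 at 24 h. It was not called at 6 h (log2 fold change -0.22 ± 0.17, adjusted p = 0.285), was 1.91-fold lower at 12 h (adjusted p = 0.000685) and 12.0-fold lower at 24 h (adjusted p = 4.39e-07; log2 fold change -3.56 without replicate 1 and -3.68 without replicate 2). The 24 h libraries were close together for MT-ND3, unlike those of MT-CO1 at 2750 and 451.8 CPM.

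MT-ND4 and MT-ND4L, which are read from 1 shared mRNA, fell at 6 h by 1.16 ± 0.36 and 1.38 ± 0.47 on the log2 scale (edgeR, adjusted p = 0.017 and 0.0247). MT-ND4 had 11030 to 11240 CPM in normoxia, 4276 to 5376 at 6 h, 8318, 6796 and 11410 at 12 h, and 2494 and 736.8 at 24 h. At 12 h its libraries reached into the normoxic range, and the values of -0.33 ± 0.36 for MT-ND4 and -0.92 ± 0.46 for MT-ND4L were not called (adjusted p = 0.458 and 0.114). Without 24 h replicate 1 or 2 the latter was called, at -0.94 and -0.92 (adjusted p = 0.000184 and 0.000244). The 6 h call of MT-ND4 was lost without 6 h replicate 3 (-1.06, adjusted p = 0.0639). That of MT-ND4L was lost in 4 of 11 fits that left out 1 library, namely normoxic replicates 1 and 3 and 6 h replicates 1 and 3 (-1.37 to -1.27, adjusted p up to 0.0869). At 24 h both were called, at 6.90-fold and 8.07-fold lower, but the size rests on the library used. MT-ND4 had a log2 fold change of -3.97 without 24 h replicate 1 and -2.18 without replicate 2, and MT-ND4L of -5.06 and -2.23.

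MT-CYB, the cytochrome b subunit of complex III, had 3103 to 3278 CPM in normoxia, 2047, 2597 and 1774 CPM at 6 h, 2061 to 3046 CPM at 12 h, and 974.9 and 459.7 CPM at 24 h. The log2 fold changes were -0.57 ± 0.27 and -0.23 ± 0.27 at 6 and 12 h (edgeR, adjusted p = 0.0956 and 0.506), and it was called 4.41-fold lower at 24 h (adjusted p = 0.000129; log2 fold change -2.84 without replicate 1 and -1.72 without replicate 2). Without either 24 h library, the 6 h value was called (-0.59 and -0.59, adjusted p = 0.00834 and 0.00867).

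The 3 core subunits of complex IV, which passes electrons to oxygen, did not move together. MT-CO2 had 9406 to 10150 CPM in normoxia, 6989 to 9313 at 6 h, 12400, 9129 and 13720 at 12 h, and 2847 and 1480 at 24 h. Its log2 fold changes of -0.25 ± 0.27 at 6 h and 0.25 ± 0.27 at 12 h were not called (edgeR, adjusted p = 0.458 and 0.456), and the 12 h value was -0.22 when libraries were scaled on size alone. MT-CO2 was called at 24 h, 4.56-fold lower (log2 fold change -2.79 without replicate 1 and -1.81 without replicate 2). MT-CO1 had 15930, 16620 and 16410 CPM in normoxia, 6406, 7248 and 6120 at 6 h, 11160, 9013 and 13980 at 12 h, and 2750 and 451.8 at 24 h. It was 2.48-fold lower at 6 h (adjusted p = 0.0303), was not called at 12 h (-0.52 ± 0.46, adjusted p = 0.36) and was 10.2-fold lower at 24 h, where its libraries differed most (log2 fold change -5.23 without replicate 1 and -2.59 without replicate 2). Its 6 h call failed when a library of normoxia or of 6 h, whichever it was, was left out (-1.38 to -1.25, adjusted p up to 0.0876), while its 12 h value was called without either 24 h library (adjusted p = 0.00993 and 0.0119). MT-CO3 was called at all 3 times, with log2 fold changes of -1.01 ± 0.27, -1.06 ± 0.27 and -3.95 ± 0.36, the last at -4.60 without replicate 1 and -3.56 without replicate 2.

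MT-ATP6 and MT-ATP8 encode the 2 mitochondrial subunits of ATP synthase, complex V, and are read from 1 mRNA. MT-ATP6 had 5458 to 5781 CPM in normoxia, 2468 to 3365 at 6 h, 2907 to 4645 at 12 h, and 938.5 and 401.6 at 24 h. Its log2 fold changes were -0.92 ± 0.29 at 6 h, -0.57 ± 0.29 at 12 h and -3.08 ± 0.37 at 24 h (edgeR, adjusted p = 0.0178, 0.116 and 2.04e-05), and the 24 h value was -3.88 without replicate 1 and -2.62 without replicate 2. The 6 h call was lost without 6 h replicate 3 (-0.79, adjusted p = 0.0717), and the 12 h value was called without 24 h replicate 1 or 2 (adjusted p = 0.00808 and 0.00942). MT-ATP8, with 639.3 to 754.7 CPM in normoxia and 109.7 and 32.19 CPM at 24 h, was lower by -1.31 ± 0.35, -1.03 ± 0.35 and -3.31 ± 0.45, each called. At 24 h it had -4.51 without replicate 1 and -2.71 without replicate 2. Its 12 h call was lost without normoxic replicates 1 or 3 or 12 h replicates 1 or 2 (-1.08 to -0.92, adjusted p up to 0.0851).

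The rRNA genes differed from the coding genes and from each other. MT-RNR1, the 12S rRNA of the small mitochondrial ribosomal subunit, was the 1 member that was higher in hypoxia. It had 493.4, 543.1 and 505.1 CPM in normoxia, 920.5, 1114 and 1046 at 6 h, 786, 833.1 and 962.9 at 12 h, and 1103 and 379.8 at 24 h. The 6 h and 12 h libraries were all above normoxia, and the 24 h pair lay on both sides of it. Its log2 fold change was 1.00 ± 0.29 at 6 h and 0.74 ± 0.29 at 12 h (edgeR, adjusted p = 0.0115 and 0.0463). The 6 h call held in all 11 fits without 1 library, but the 12 h call held only without 24 h replicate 1 or replicate 2, and in the other 9 fits the value was 0.66 to 0.81 with adjusted p up to 0.129. With library size alone neither was called. At 24 h the value of 0.53 ± 0.32 was not called (adjusted p = 0.165): it was 1.08 without replicate 2 (adjusted p = 9.75e-05) and -0.49 without replicate 1 (adjusted p = 0.0224), so its direction rests on which library is used.

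MT-RNR2, the 16S rRNA of the large subunit, had 10630 to 11400 CPM in normoxia, 10170 to 10660 at 6 h, 9821, 8669 and 12850 at 12 h, and 6793 and 1569 at 24 h. The log2 fold changes of -0.07 ± 0.39 at both 6 h and 12 h were not called (edgeR, adjusted p = 0.89 and 0.901), while MT-RNR2 was 2.62-fold lower at 24 h (adjusted p = 0.0193; log2 fold change -2.86 without replicate 1 and -0.71 without replicate 2). Fitted with the normoxic and 24 h libraries alone, the 24 h call of MT-RNR2 was lost (-1.36, edgeR, adjusted p = 0.123). For every 100 counts of MT-RNR2, MT-RNR1 had 4.58 to 4.76 counts in normoxia, 8.83 to 10.4 at 6 h, 7.49 to 9.61 at 12 h, and 16.2 and 24.2 at 24 h. This ratio needs no scaling between libraries, and all hypoxic libraries lay above the normoxic ones; it was not tested. Of the placements of MT-RNR1 28.4% have a nuclear copy, against 3.37% for MT-RNR2.

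**Figure D3:**
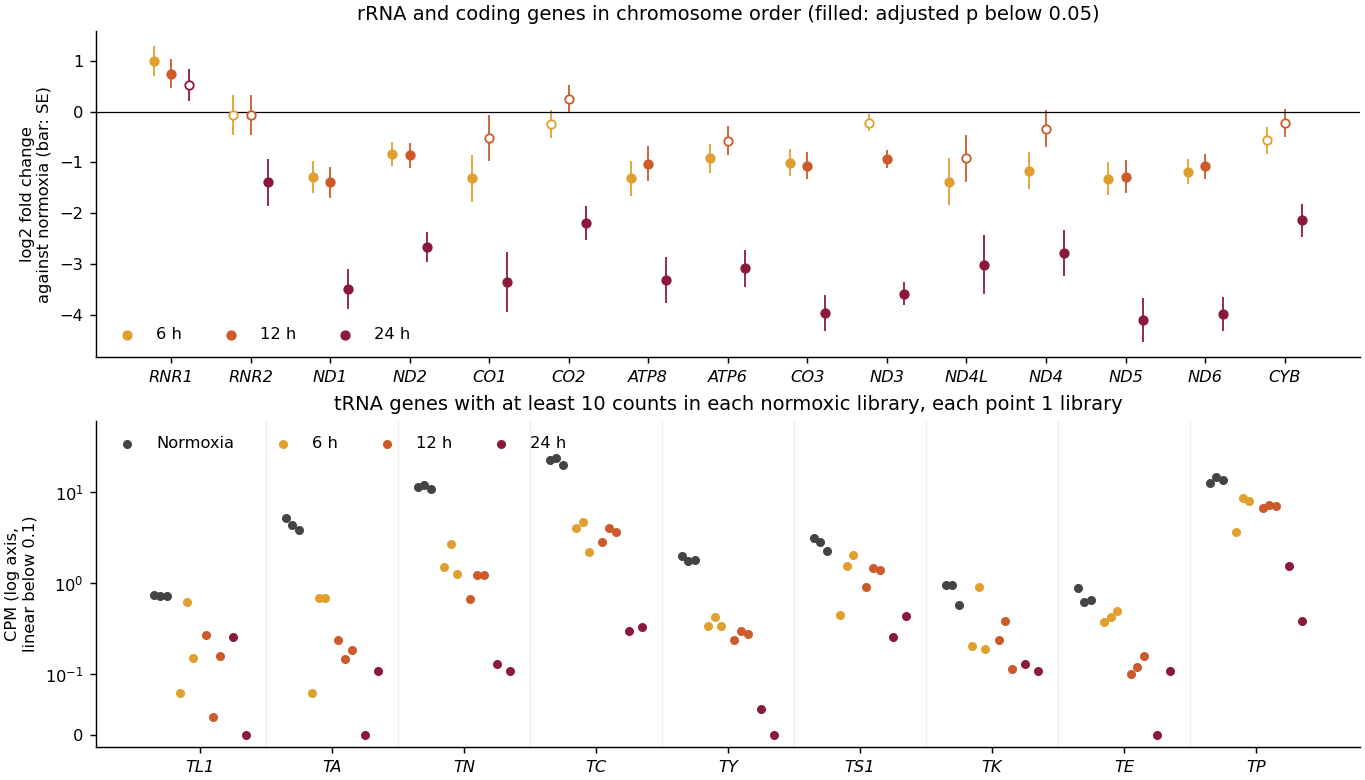
The upper panel gives log2 fold changes against normoxia (y axis, bars are SE) for the rRNA and coding genes in chromosome order, filled where the adjusted p was below 0.05. The lower panel gives CPM per library (y axis, log above 0.1) for 9 tRNA genes. The coding genes lie between -4.10 and -2.14 at 24 h, and TA, TN, TC and TY drop from 1.76 to 23.9 CPM in normoxia to at most 0.327 CPM at 24 h.

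RNA was kept above 200 nucleotides and the tRNA genes are 59 to 75 bases long, so these counts come from longer molecules that touch the genes; 13 of the 22 have no position where a 75-base read touches them alone. MT-TI and MT-TT had 0 counts in all libraries, and 9 had at least 10 counts in each normoxic library. The others had at most 20 counts in any library. Of the 10 tRNA genes tested, 6 were called lower at 6 h and 9 at both 12 h and 24 h, beside 27.7%, 27.1% and 31.3% of all tested genes. Of the same 10, 0 were called higher at any time, beside 25.1%, 24.2% and 29.9% of all tested genes at 6, 12 and 24 h. The median log2 fold change of the 10 tRNA genes was -1.22, -2.34 and -4.70. At 24 h it was -3.78 with MT-TV, which had 0 counts there, set to its bound.

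MT-TC had 963, 896 and 828 counts in normoxia, which is 19.9 to 23.9 CPM. It had 118, 146 and 116 counts at 6 h, 83, 136 and 160 at 12 h, and 7 and 6 at 24 h. Its log2 fold changes were -2.61 ± 0.25 at 6 h and -2.65 ± 0.25 at 12 h (edgeR, adjusted p = 6.84e-06 and 8.95e-06), and its pooled level at 24 h was 70.5-fold lower (95% exact interval of the counts 41.1 to 133). MT-TN went from 497, 448 and 455 counts to 44, 83 and 66 at 6 h, 20, 41 and 54 at 12 h, and 3 and 2 at 24 h. This was a log2 fold change of -2.67 ± 0.29 at 6 h and -3.44 ± 0.30 at 12 h, and a ratio of 95.4 at 24 h (interval 40.8 to 294).

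MT-TA had 226, 162 and 159 counts in normoxia and 2, 21 and 36 at 6 h. It had 7, 5 and 8 counts at 12 h, and 0 and 2 at 24 h, where the ratio of normoxia to 24 h was 93.2 (interval 25.7 to 772). Its log2 fold changes at 6 h and 12 h were -3.15 ± 0.47 and -4.55 ± 0.54 (edgeR, adjusted p = 0.000137 and 3.58e-05). MT-TY had 66 to 87 counts in normoxia, 10 to 18 at 6 h, 7 to 12 at 12 h, and 1 and 0 at 24 h, and was lower by -2.33 ± 0.27 and -2.77 ± 0.28 at 6 and 12 h. All 4 genes of the cluster were called at every time, in the fit of all libraries and in each of the 11 fits without 1 library. The intervals cover counting error only.

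Against the coding genes of the same library, the 4 genes together had 535 to 634 counts for every 1000000 coding counts in normoxia, 154 to 217 at 6 h, 81.9 to 147 at 12 h, and 37.4 and 111 at 24 h. MT-TP, from the same promoter strand, had 188 to 221 in normoxia, 98.0, 219 and 276 at 6 h, 121 to 186 at 12 h, and 123 and 77.9 at 24 h. The cluster thus lay below normoxia in all 8 hypoxic libraries relative to coding counts, while MT-TP overlapped with normoxia at 6 h. The cluster was chosen after its values were seen, and the difference was not tested. Of the placements, 100% for MT-TN, 77.3% for MT-TC and 66.7% for MT-TA have an exact nuclear copy, and 0% for MT-TY and MT-TP.

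MT-TP had 549, 547 and 564 counts in normoxia, 107, 266 and 424 at 6 h, 198, 243 and 311 at 12 h, and 36 and 7 at 24 h. Its log2 fold changes were -1.001 ± 0.32, -0.96 ± 0.32 and -3.76 ± 0.47 (edgeR, adjusted p = 0.0199, 0.0255 and 2.62e-05), the last at -5.20 without 24 h replicate 1 and -3.16 without replicate 2. The 6 h call was lost without normoxic replicate 2 or 6 h replicate 1 (-0.96 and -0.71, adjusted p = 0.0609 and 0.0671), and the 12 h call on leaving out a library of normoxia or of 12 h, whichever it was (-1.01 to -0.91, adjusted p up to 0.0737).

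MT-TS1, for serine, had 93 to 135 counts in normoxia, 13, 47 and 107 at 6 h, 27 to 61 at 12 h, and 6 and 8 at 24 h. It was called at all 3 times at -0.99 ± 0.39, -1.11 ± 0.40 and -2.99 ± 0.59, but the first 2 calls held in 3 and 6 of the 11 fits without 1 library (adjusted p up to 0.137 and 0.114). At 6 h the call failed on leaving out each normoxic library, each 12 h library and 6 h replicates 1 or 2 (-1.13 to -0.60). At 12 h it was lost without normoxic replicates 1 or 2 or each of the 12 h libraries (-1.25 to -0.93).

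MT-TE, for glutamate, had 23 to 38 counts in normoxia, 11, 13 and 26 at 6 h, 3, 4 and 7 at 12 h, and 0 and 2 at 24 h. It was not called at 6 h (-0.71 ± 0.34, adjusted p = 0.0984), though it was without 24 h replicate 1 or 2 (adjusted p = 0.0345 and 0.0372). It was called at 12 h (-2.43 ± 0.41, adjusted p = 0.000456), and the ratio of normoxia to 24 h was 15 (interval 4.03 to 126).

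Of the heavy-strand tRNA genes, MT-TL1 for leucine had 27 to 32 counts in normoxia, 2, 19 and 8 at 6 h, 8, 1 and 7 at 12 h, and 6 and 0 at 24 h. It was not called at 6 h (-1.43 ± 0.64, adjusted p = 0.0774) but was without 6 h replicate 2 (-2.57, adjusted p = 0.0109) or either 24 h library. Its 12 h call (-2.25 ± 0.71, adjusted p = 0.018) was lost without 12 h replicates 2 or 3 (adjusted p = 0.0666 and 0.0537). Its 24 h call (adjusted p = 0.0451, pooled ratio 5.06 with an interval of 2.23 to 14.1) failed without each normoxic library in turn, 12 h replicate 3 or 24 h replicate 2 (adjusted p up to 0.186).

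MT-TK, for lysine, had 24 to 41 counts in normoxia, 6, 28 and 10 at 6 h, 5 to 13 at 12 h, and 3 and 2 at 24 h, where the ratio was 6.89 (interval 2.86 to 21.7). It was not called at 6 h (-0.99 ± 0.53, adjusted p = 0.134), though it was without 6 h replicate 2 (-2.06, adjusted p = 0.00511). The 12 h call (-1.78 ± 0.58, adjusted p = 0.0209) was lost without normoxic replicates 1 or 2 or 12 h replicates 1 or 3 (-1.78 to -1.39, adjusted p up to 0.0927), and the 24 h call without either 24 h library (-2.94 and -2.68, adjusted p = 0.0533 and 0.0558). MT-TV, for valine, had 3 to 11 counts in normoxia, 0, 2 and 20 at 6 h and 0 to 5 at 12 h. It had 0 in both 24 h libraries, was not called at any time, and was at least 2.39-fold lower at 24 h (floor of 3 counts over the group). MT-TF, for phenylalanine, had 6 to 11 counts in normoxia and 0 in both 24 h libraries, at least 2.84-fold lower by the same floor.

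Times within hypoxia were compared directly. Between 12 h and 6 h, 2 members were called lower and 0 higher, beside 3.07% and 1.88% of all genes. They were MT-ND3 (-0.71 ± 0.17, adjusted p = 0.0328) and MT-TE (-1.72 ± 0.44, adjusted p = 0.0435), and in both the 12 h libraries lay below all 6 h libraries. The calls were borderline. Both failed on leaving out each normoxic library, each 12 h library and 6 h replicates 1 or 2, and MT-TE also without 6 h replicate 3 (adjusted p up to 0.135 for MT-ND3 and 0.144 for MT-TE). MT-CO1 (0.79 ± 0.46, adjusted p = 0.353) and MT-ND4 (0.83 ± 0.36, adjusted p = 0.21) had all 12 h libraries above all 6 h libraries but were not called. Without 24 h replicate 1 or 2 they were, with adjusted p of 0.00665 and 0.0059 for MT-CO1 and 0.00828 and 0.00735 for MT-ND4. DESeq2 and limma-voom called 0 members higher too, and MT-ND4 was the 1 member with a positive change at an unadjusted p below 0.05.

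Between 24 h and 12 h, 19 members were called lower and 0 higher, beside 13.3% and 15.1% of all genes. All 13 coding genes were among them, with log2 fold changes from -2.91 for MT-ND6 to -1.80 for MT-ND2 and a median of -2.45, and these 13 calls held in each fit without 1 library. Fitted with the 12 h and 24 h libraries alone, all 13 calls were lost (adjusted p = 0.0658 to 0.112) while the values stayed at -2.93 to -1.83. Leaving out 24 h replicate 1 or 2 moved the value of MT-ND4L most, to -4.12 and -1.31. MT-RNR2 was 2.50-fold lower (adjusted p = 0.0474). That call held only without 24 h replicate 1, was lost in the other 10 fits, and the value was -2.76 without 24 h replicate 1 and -0.64 without replicate 2. MT-RNR1 was not called (-0.22 ± 0.32, adjusted p = 0.646), at -1.21 without 24 h replicate 1 and 0.34 without replicate 2. The other 5 members called lower were light-strand tRNA genes. The 7 tested genes of that kind had log2 fold changes from -3.475 to -1.36, on 0 to 36 counts per library at 24 h. Whether these 5 calls held without 1 library was not followed. By DESeq2 and limma-voom 0 members were higher, and 0 had a positive change at an unadjusted p below 0.05.

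The make-up of the coding counts shifted within libraries, a comparison that is free of the scaling between them and was not tested. MT-CO2 formed 14.2 to 14.95% of coding counts in normoxia, 22.03 to 25.0% at 6 h, 23.4 to 25.7% at 12 h, and 22.7 and 30.2% at 24 h. MT-CYB formed 4.63 to 4.81% in normoxia and 5.15 to 9.39% in hypoxia. MT-ND5 formed 5.02 to 5.21% in normoxia, 3.21 to 4.23% at 6 h, 2.59 to 3.22% at 12 h, and 2.33 and 2.19% at 24 h. MT-CO3 formed 9.40 to 9.48% in normoxia, 8.18 to 9.35% at 6 h, 5.68 to 6.98% at 12 h, and 4.35 and 5.56% at 24 h. For these 4 genes every hypoxic library lay outside the normoxic range, with the first 2 above it and the last 2 below it. Other coding genes followed in this way were mixed. MT-ND1 lay below its normoxic 4.05 to 4.10% in every hypoxic library, at 1.97 to 3.90%. MT-CO1 overlapped, with 23.8% in 12 h replicate 3 against 23.7 to 25.2% in normoxia. Hypoxic values lay on both sides of normoxia for MT-ND3 (0.50 to 2.04% against 1.17 to 1.19%) and MT-ND4 (13.7 to 19.8% against 16.5 to 16.7%).

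Counts of the nuclear copies were compared with those of the genes they match. MTCO1P12 had counts equal to 35.6 to 42.0% of those of MT-CO1 over the libraries, where 37.2% of the placements of MT-CO1 are shared with it. MTND2P28 had 24.8 to 41.4% of MT-ND2 with 34.4% of placements shared, and MTCO2P12 had 8.90 to 15.5% of MT-CO2 with 12.8% shared. MTATP6P1 had 39.4 to 48.5% of MT-ATP6 with 25.5% shared. These are the 4 copies with the highest levels, and in each of them a 24 h library gave at least 1 end of the range. Other copies strayed further: MTND1P23, chosen after its values were seen, had 17.3 to 35.2% of MT-ND1 with 16.3% of placements shared. How reads with several matches were counted is not given in the sources used here.

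Nuclear genes that act on mitochondrial DNA and RNA were counted beside all tested genes, of which 25.1%, 24.2% and 29.9% were called higher and 27.7%, 27.1% and 31.3% lower at 6, 12 and 24 h. The list of 22 genes of mitochondrial DNA transcription and replication lay near these shares, with 6 higher and 7 lower at 6 h, 6 and 6 at 12 h, and 7 and 6 at 24 h, with a median log2 fold change of 0.06, 0.00 and -0.03. POLRMT, the RNA polymerase, had 41.3 ± 4.46 CPM (SD, n = 3) in normoxia and 79.0 ± 30.8 (n = 2) at 24 h, with log2 fold changes of 0.46 ± 0.21, 0.72 ± 0.21 and 0.94 ± 0.23 (edgeR, adjusted p = 0.0822, 0.0127 and 0.00368). TFB2M, which opens the promoter, was higher at all 3 times, at 1.60 ± 0.17, 1.01 ± 0.17 and 1.38 ± 0.19. TFAM, the activator that also packs the DNA, was higher at 6 h alone (0.97 ± 0.15, adjusted p = 0.000224), with 0.12 ± 0.15 and 0.08 ± 0.17 after that. TEFM, the elongation factor, had 0.31 ± 0.17, 0.41 ± 0.17 and 0.67 ± 0.19 and was called at 24 h (adjusted p = 0.00906).

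Among replication genes, TWNK, the helicase, was higher at 2.25 ± 0.21 and 0.97 ± 0.21 at 6 h and 12 h and had 0.31 ± 0.23 at 24 h (edgeR, adjusted p = 5.6e-06, 0.00202 and 0.257). POLG, the DNA polymerase, was called higher at 6 h and 12 h (0.77 ± 0.16 and 0.40 ± 0.16) and had -0.41 ± 0.18 at 24 h (adjusted p = 0.0603). The lowest were PRIMPOL, a primase and polymerase (-2.49 ± 0.34, -1.84 ± 0.33 and -2.05 ± 0.40), and TK2, the mitochondrial thymidine kinase (-2.05 ± 0.19, -1.57 ± 0.18 and -1.77 ± 0.22), both called at each time. With library size alone, where the median of all tested genes was -0.32, -0.50 and -0.97, POLRMT had -0.07, TFAM -0.90, TEFM -0.24 and TWNK -0.69 at 24 h, TFAM -0.35, TEFM -0.06 and POLG -0.06 at 12 h, and TEFM -0.01 at 6 h. These values were thus of the other sign. The share of all tested genes called on library size alone is not given here. List counts on that scaling, for this list and for those below, therefore cannot be set beside the shares of the main fit. On library size alone the list had 15 lower and 3 higher at 24 h. It had 9 lower and 9 higher without 24 h replicate 1, and 6 and 4 without replicate 2.

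In the list of mitochondrial RNA processing and stability, 11, 12 and 11 of 22 genes were higher and 3 were lower at each time, beside 25.1%, 24.2% and 29.9% of all genes higher and 27.7%, 27.1% and 31.3% lower. The median log2 fold change was 0.45, 0.47 and 0.55. SLIRP, which with LRPPRC holds the mRNAs of the heavy strand stable, was higher at 0.75 ± 0.24, 0.77 ± 0.24 and 2.01 ± 0.26 (edgeR, adjusted p = 0.0182, 0.0165 and 3.7e-05). LRPPRC itself had 0.16 ± 0.16, 0.29 ± 0.16 and 0.32 ± 0.18 and was not called (adjusted p = 0.436, 0.153 and 0.148), with values of -0.16, -0.18 and -0.52 on library size alone. HSD17B10, a subunit of the enzyme that cuts tRNAs out at their 5′ ends, was higher at 0.81 ± 0.18, 1.10 ± 0.18 and 1.69 ± 0.20. FASTKD5, needed to process ends that no tRNA marks, was highest at 6 h (2.25 ± 0.14, then 1.35 ± 0.14 and 0.42 ± 0.16, and -0.47 at 24 h on library size alone). The lowest were ANGEL2 (-1.67 ± 0.18, -1.73 ± 0.18 and -1.82 ± 0.22) and PTCD2 (-1.87 ± 0.15, -1.37 ± 0.15 and -1.58 ± 0.17). With library size alone the list had 3 higher and 8 lower at 24 h, against 12 and 4 without 24 h replicate 1 and 13 and 3 without replicate 2.

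Of 25 tested genes for modification of mitochondrial tRNA and rRNA, 7 were higher and 10 lower at 6 h (25.1% and 27.7% of all genes), 8 and 6 at 12 h, and 8 and 5 at 24 h (0 and 17 at 24 h on library size alone, 9 and 3 without 24 h replicate 1, and 6 and 7 without replicate 2). PUS1, a pseudouridine synthase (1.11 ± 0.21, 0.77 ± 0.21 and 0.90 ± 0.23, and -0.08 at 24 h on library size alone), and ALKBH1, a demethylase (0.97 ± 0.15, 1.29 ± 0.15 and 1.40 ± 0.16), were the highest. MRM1, a methyltransferase of the 16S rRNA (-1.41 ± 0.42, -1.59 ± 0.42 and -1.31 ± 0.50), and OSGEPL1, a tRNA threonylcarbamoyl transferase (-1.35 ± 0.21, -0.88 ± 0.20 and -1.5 ± 0.25), were the lowest.

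Of 12 tested nuclear regulators of mitochondrial biogenesis, 9 were higher and 2 lower at 6 h (25.1% and 27.7% of all genes), 5 and 3 at 12 h, and 4 and 3 at 24 h (1 and 8 at 24 h on library size alone, 2 and 4 without 24 h replicate 1, and 4 and 3 without replicate 2). PPARGC1A, the coactivator PGC-1α, was low at 2.11 CPM in normoxia and lower by -3.67 ± 0.53, -1.18 ± 0.43 and -1.59 ± 0.54 (edgeR, adjusted p = 0.00012, 0.0356 and 0.0225). PPRC1, a related coactivator, was higher at 6 h (0.73 ± 0.17), had 0.24 ± 0.17 at 12 h (-0.23 on library size alone) and was lower at 24 h (-1.02 ± 0.19, adjusted p = 0.000627). MXI1, which opposes MYC, was higher at 1.38 ± 0.18, 1.66 ± 0.18 and 1.66 ± 0.20. MYC itself was higher at 1.68 ± 0.22, 1.31 ± 0.22 and 0.68 ± 0.24, with -0.19 at 24 h on library size alone. ESRRA, an orphan nuclear receptor, was the other of the 2 lowest (-0.71 ± 0.21, -0.54 ± 0.21 and -0.46 ± 0.23, the last not called).

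The nuclear subunits of the complexes whose mitochondrial subunits fell had mostly positive log2 fold changes. At 24 h 31 of 37 nuclear complex I genes, 9 of 9 of complex III, 11 of 11 of complex IV and 18 of 18 of complex V were called higher, beside 29.9% of all genes. Without 24 h replicate 1 the counts were 32, 9, 11 and 18, without replicate 2 they were 24, 7, 11 and 17, and on library size alone 16, 4, 10 and 11. The medians at 24 h were 1.37, 1.34, 2.04 and 1.73, beside -3.49, -2.14, -3.35 and -3.20 for the mitochondrial genes of the same complexes. Without 24 h replicate 2 the nuclear medians were 0.67, 1.04, 1.39 and 1.06. At 24 h every nuclear gene of the 4 lists lay above every mitochondrial gene of its complex, 37, 9, 11 and 18 genes.

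At 6 h 12, 3, 4 and 8 of these nuclear genes were called higher and at 12 h 16, 4, 11 and 12, with 5 complex I genes lower at both times, beside 25.1% and 24.2% of all genes called higher. The highest in complex I were NDUFB11 (0.67 ± 0.24, 1.07 ± 0.24 and 2.29 ± 0.26 at 6, 12 and 24 h) and NDUFS5 (0.80 ± 0.21, 0.98 ± 0.21 and 1.99 ± 0.23). The lowest were NDUFA7 (-1.91 ± 0.43, -1.73 ± 0.43 and -0.55 ± 0.47) and NDUFV2 (-1.05 ± 0.25, -0.88 ± 0.25 and -0.48 ± 0.28), neither called at 24 h. In complex III, UQCRH (0.75 ± 0.20, 1.07 ± 0.20 and 2.28 ± 0.22) and UQCRB (0.65 ± 0.19, 0.94 ± 0.19 and 2.25 ± 0.21) were highest. UQCRFS1, the Rieske protein, had -0.36 ± 0.23 and -0.09 ± 0.23 and then 0.78 ± 0.26, and CYC1, cytochrome c1, had -0.13 ± 0.24 and 0.14 ± 0.24 and then 1.25 ± 0.26; both were called at 24 h alone. On library size alone UQCRFS1 had -0.27 at 24 h and CYC1 -0.33 at 12 h.

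In complex IV the highest were COX6A1 (0.76 ± 0.25, 1.19 ± 0.26 and 2.61 ± 0.28) and COX7B (0.74 ± 0.27, 0.92 ± 0.27 and 2.56 ± 0.30). The lowest were COX8A (0.30 ± 0.21, 0.59 ± 0.21 and 1.40 ± 0.23) and COX5A (0.44 ± 0.20, 0.54 ± 0.20 and 1.56 ± 0.22), not called at 6 h, where COX8A had -0.02 on library size alone. In complex V, ATP5MG (0.74 ± 0.26, 1.17 ± 0.26 and 2.58 ± 0.29) and ATP5F1E (0.78 ± 0.26, 1.14 ± 0.26 and 2.52 ± 0.29) were highest. ATP5F1A, the α subunit, had 0.12 ± 0.13 and 0.30 ± 0.13 and then 0.82 ± 0.15, and ATP5IF1, the inhibitor of ATP synthase, had -0.02 ± 0.20 and 0.09 ± 0.20 and then 1.08 ± 0.22. Both were called at 24 h alone. On library size alone ATP5F1A had -0.20, -0.17 and -0.14 at the 3 times and ATP5IF1 -0.38 at 12 h.

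**Figure D4:**
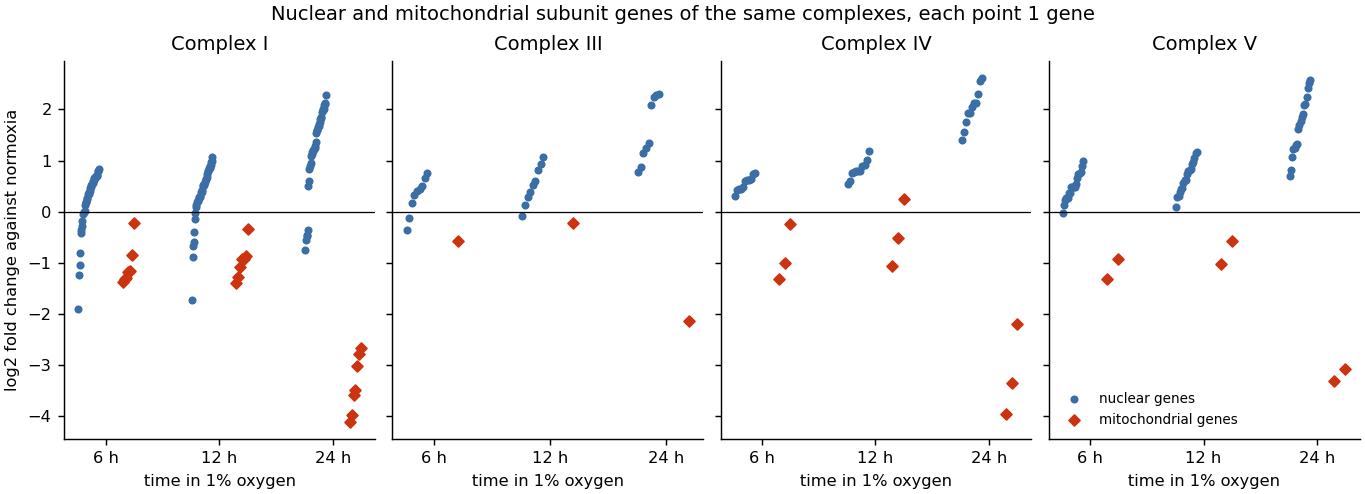
Log2 fold changes against normoxia (y axis) are plotted by time in 1% oxygen (x axis) for nuclear (circles) and mitochondrial (diamonds) subunit genes of complexes I, III, IV and V, each point 1 gene. At 24 h the nuclear medians are 1.34 to 2.04 and the mitochondrial medians -3.49 to -2.14, with no overlap in any complex.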

How the data were processed

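The authors trimmed reads with Trimmomatic, aligned them to GRCh38 (hg38) with STAR and deposited raw counts per Ensembl gene from featureCounts; strand and multi-mapping settings are not given in the sources used here. The single count table holds whole numbers for 60676 genes in 11 libraries, with 27496009 to 49488345 counts each, and no column was left without a sample. Gene classes, positions and sequences came from GENCODE release 44 on GRCh38, which held 60357 of the gene identifiers. filterByExpr (minimum count 10, minimum total 15) kept 19981 genes. Libraries were scaled by TMM and fitted in edgeR 4.0.16 (R 4.3.3; quasi-likelihood, all 11 libraries, 1 mean per time, no covariate), and p-values were adjusted by Benjamini-Hochberg across every gene tested. The SE is the absolute log2 fold change over the square root of F. Shares were tested by exact two-sided permutation over 8 hypoxic and 3 normoxic libraries; with 3 against 3 libraries such a test cannot go below 0.1. Intervals are Wilson or exact binomial at 95% and cover counting error only.

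The members, gene lists and tests were chosen with earlier results of these data known. All 13 coding and 2 rRNA genes are described, tRNA genes with at least 10 counts in each normoxic library are given in full (MT-TV and MT-TF were added after their values were seen), and 10 regulators plus the 2 highest and 2 lowest called genes by mean log2 fold change are named per nuclear list; for the complexes the lists hold no such regulators. On simulated counts, edgeR called 47, 47 and 36 of 83 genes changed by 1 on the log2 scale at 6, 12 and 24 h, and 103, 104 and 94 of 109 changed by 2, with 8, 8 and 5 false calls among 18929. The simulation changed few genes, by the same amount at each time, and gave all libraries 1 spread per gene. In the data 27.7% of genes were called lower and 25.1% higher at 6 h, and 24 h replicate 2 stood apart, so these rates need not hold there. Alternatives were DESeq2 1.42.0, limma-voom (limma 3.58.1), other scalings and filters, fits of the groups compared alone, a replicate block, each library left out, and, chosen after seeing the data, the nuclear copies added to the mitochondrial share.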

Additional observations from a re-analysis of the deposited data

Results flagged for a closer look

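Log2 fold changes between 12 h and 6 h in 1% oxygen met the rule for a difference between time points in 2 members, by the edgeR quasi-likelihood fit. MT-ND3 was at -0.713 (edgeR, adjusted p = 0.0328) and MT-TE at -1.721 (adjusted p = 0.0435), each lower in all 3 of the 12 h libraries than in the 6 h libraries. The number of members called lower was 2 between 12 h and 6 h and 19 between 24 h and 12 h. The 24 h group holds 2 libraries, of which replicate 2 stood apart.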

How the results depend on the processing

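Alternative values of the tested mitochondrial genes were tallied against the main fit. Between 24 h and 12 h the tally left out the tRNA genes, and between 12 h and 6 h it held MT-ND3, MT-TE, MT-CO1 and MT-ND4 alone. In it 1668 values kept direction and call, 115 lost a call, 47 gained one and 10 changed sign. The causes were not tested. Nuclear genes that changed sign on library size alone are named beside their values. Members called higher at 12 h numbered 0 by limma-voom, library size alone, scaling on nuclear genes, at least 10 counts in every library, and the replicate block; at 6 h they numbered 0 on library size alone. Members called lower at 6, 12 and 24 h numbered 10, 7 and 14 with at least 10 counts in every library, where fewer genes were tested. Between 12 h and 6 h, 1 was lower by limma-voom and with that filter, 0 with the block, and 2 were higher with no filter or with only the 2 groups fitted. Between 24 h and 12 h, 0 were called lower with only those groups fitted, though the coding values stayed at -2.93 to -1.83. Same-numbered libraries did not deviate together (correlations -0.205 to 0.328), so the numbers were not taken as pairs; the block gave 17, 16, 22, 0 and 17 lower calls over the 5 comparisons. MT-TV at 6 h was -0.146 by DESeq2, -0.779 by limma-voom, -0.257 on library size alone and -0.219 with the block. On library size alone MT-CO2 at 12 h was -0.224 and MT-RNR1 at 24 h -0.235. Leaving out each library in turn, members called higher ranged from 0 to 1 at 12 h and at 24 h, and from 0 to 3 between 12 h and 6 h, where those called lower ranged from 0 to 2. The light-strand share difference ranged from -0.4679 to -0.3638 percentage points. MT-RNR2 at 12 h ranged from -0.241 to 0.018, MT-RNR1 from -0.492 to 1.082 at 24 h and from -1.208 to 0.343 between 24 h and 12 h, and MT-TV at 6 h from -0.329 to 0.526. Of the tRNA genes, 12 had too few counts to test.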
